A study of Drosophila melanogaster with 8 samples.

Results

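EYA-D493N was compared with EYA-E728Q, the 2 forms of Eyes absent (EYA) with a mutation that lowers its phosphatase activity. All arrays titled EYA-D493N (n = 2) and EYA-E728Q (n = 2) were taken, 4 of the 8 arrays of the series, with every probe set except the Affymetrix controls. Both groups were adult Drosophila melanogaster, males and females together, with 2 constructs, the driver Hsp-GAL4, which heat induces, and a UAS-EYA transgene. The transgene held the D493N mutation in one group, which per the series' description reduces phosphatase activity, and the E728Q mutation in the other, which leaves little if any. EYA-Wildtype flies (n = 2 arrays) carried the driver and an unmutated EYA transgene. Control flies (n = 2 arrays) were of the strain W1118 and had no driver and no transgene. All groups were kept for 1 h at 37 C and then for 3 h at 25 C before heads were collected. Each RNA came from 200 pooled heads in 4 lots of 50, and the sources used here give no fly ages, no insertion sites of the transgenes and no number of independent lines. The heat-shock promoter of the driver acts in most cell types, so its expression is not restricted to the eye. No label says that the arrays of a group came from separate cultures, so the spread behind each p-value may be technical.

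Eyes absent is a coactivator that has no DNA-binding domain of its own and acts on genes through Sine oculis, the homeodomain protein that it binds. It belongs with Sine oculis, Dachshund and Eyeless to the retinal determination network of the fly eye. Its conserved carboxy-terminal domain is a phosphatase of the haloacid dehalogenase family, and both mutations lie in that domain. The comparison sets a mutant form with reduced activity beside one with little if any. Activity, transgene line, insertion site and transgene level cannot be told apart in this design.

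The RNA was of heads, and the photoreceptor markers chp, trp, inaD, gl and Arr2 had signals of 2153 or more on all 4 mutant arrays, where the median probe set of each array has a signal of 100. The EYA-D493N arrays differed from each other, and each was an extreme of the series in some measures, so results that rest on one of them are given below with and without it. On EYA-D493N replicate 1 the 18S rRNA 5' control had a signal of 5619, against at most 2196 on any other array. The SD of the log2 difference between the 2 arrays of a group was 0.39 for EYA-D493N, 0.32 for EYA-E728Q, 0.27 for EYA-Wildtype and 0.28 for control. Act5C, an actin control that reads RNA degradation, had 3'/5' ratios of 5.63 and 6.26 on the EYA-D493N arrays, against 4.84 and 5.11 on the EYA-E728Q arrays. The ranges of this ratio did not overlap between the mutants, and its part in the results was not tested. EYA-D493N replicate 2 had the highest ratio of the 8 arrays, and also the highest for the control eIF4A, at 4.05 against at most 3.23 on any other array. It had the highest summed signals of 5 photoreceptor markers (95382, the next array 83662), 18 neuron markers (84254, the next 76812) and 20 phototransduction genes (233400, the next 207960).

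Few probe sets were called between heads with the 2 mutants, with 2 arrays in each group. Of 11261 probe sets tested, 10 were higher and 9 were lower with EYA-D493N than with EYA-E728Q at an adjusted p under 0.05 by limma, which is 0.169% of those tested (0.0888% higher and 0.0799% lower). Of the 19, 9 differed at least 2-fold, or 0.0799%. In the same model 3147 probe sets (27.9%) were called between EYA-D493N and control, 2648 (23.5%) between EYA-E728Q and control, and 2516 (22.3%) between EYA-Wildtype and control, 3 comparisons that share the control arrays. At an unadjusted p under 0.05, 1476 probe sets (13.1%) differed between the mutants.

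**Figure D1:**
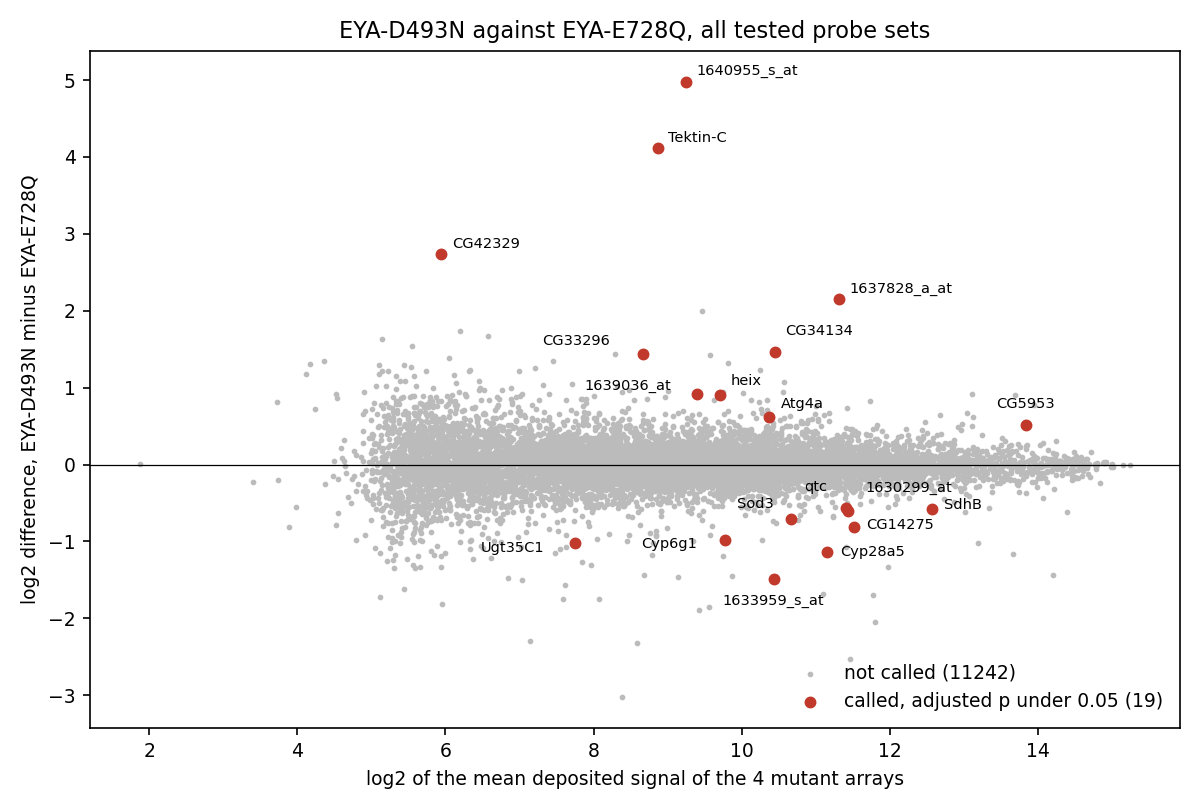
Difference between EYA-D493N and EYA-E728Q for each of 11261 probe sets (y axis, log2 of normalized signal plus pseudocount) against the log2 mean deposited signal of the 4 mutant arrays (x axis). The 19 called probe sets are red and labelled by gene or probe set. Nearly all other points lie close to 0, and several large negative differences are not called.

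Most intervals of the model, which pools the variance of all 4 groups, were narrow. EYA-D493N had the largest spread between its arrays, so these intervals may be too narrow for this comparison. The median half-width of the 95% confidence interval was 0.29 on the log2 scale, and for 9979 probe sets (88.6%) the whole interval lay within a 2-fold difference in either direction. The median absolute log2 difference was 0.13, and its 95th percentile was 0.57. A difference of at least 2-fold was measured for 112 probe sets (0.995%), of which 47 were higher and 65 lower with EYA-D493N. Of these, 81 had arrays that did not overlap between the groups and 9 were called. Over all probe sets, the deposited signals of the 2 arrays of each mutant did not overlap for 4459 (39.6%).

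The 14 called genes with a single symbol were grouped by their calls against EYA-Wildtype. EYA-E728Q stood apart, meaning that it was called, in some genes and EYA-D493N in others, and for 3 genes neither was called. This grouping is not one of order. The EYA-Wildtype mean also lay between the mutants in genes of the other kinds, such as CG5953 and Atg4a. Against EYA-Wildtype, 130 probe sets (1.15%) were called for EYA-D493N and 80 (0.71%) for EYA-E728Q. These comparisons share the mutant arrays with the main comparison, so they place the values and are not independent evidence. All log2 values below are EYA-D493N minus EYA-E728Q unless another pair of groups is named, and adjusted p-values are from limma with the Benjamini-Hochberg method applied to all 11261 tests.

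Tektin-C, which encodes a filament protein of the axonemes of cilia and sperm tails, had the largest difference of any named gene. Its probe set 1628238_at had signals of 930.3 and 853 with EYA-D493N, against 78.5 and 9.75 with EYA-E728Q. It had 763 and 860.2 with EYA-Wildtype and 1695 and 1444 in control heads. The EYA-E728Q arrays alone were low, at less than the array median of 100, and did not overlap with any other array. The log2 difference between the mutants was 4.12 (95% interval 3.07 to 5.16, adjusted p = 0.0100). EYA-E728Q was below EYA-Wildtype by a log2 difference of -4.06 (adjusted p = 0.00675), while EYA-D493N differed from EYA-Wildtype by 0.05 (adjusted p = 0.971). The value between the mutants lay between 2.79 and 5.04 over the 19 alternative settings, at 5.04 without EYA-E728Q replicate 1 and 3.19 without EYA-E728Q replicate 2. The call was lost in 3 of them, with a pseudocount of 1 (adjusted p = 0.0583), with only the 4 mutant arrays (0.226) and without the intensity trend (0.131). The summed signals of 22 testis and accessory gland markers were 533 and 567 with EYA-D493N, against 482 and 950 with EYA-E728Q, which overlap.

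CG42329 showed the same order of the mutants at a lower level. Probe set 1637590_at had 143 and 97.8 with EYA-D493N, against 2.15 and 3.81 with EYA-E728Q. EYA-Wildtype heads had 80.3 and 75.3, and control heads had 430.02 and 492. The EYA-E728Q values were under the pseudocount of 17.5, so the log2 difference of 2.73 (95% interval 2.21 to 3.26, adjusted p = 0.00409) depended on it and lay between 1.09 and 4.96 over the alternatives. Against control, CG42329 was lower in each transgenic group, with log2 differences of -1.84 for EYA-D493N, -4.57 for EYA-E728Q and -2.35 for EYA-Wildtype. A second probe set of CG42329, 1636678_at, had a log2 difference of 0.81 that was not called (adjusted p = 0.432).

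Atg4a encodes a protease that processes Atg8 in autophagy. Its signals were 1628 and 1616 with EYA-D493N, against 1017 and 1023 with EYA-E728Q. They were 1503 and 1382 with EYA-Wildtype and 1371 and 1248 in control heads. Both EYA-D493N arrays were above all others and both EYA-E728Q arrays were below all others. This gave a log2 difference of 0.62 (95% interval 0.46 to 0.79, adjusted p = 0.0135). It was the only one of the 14 genes called in opposite directions against control, with 0.24 for EYA-D493N (adjusted p = 0.0404) and -0.39 for EYA-E728Q (adjusted p = 0.00555).

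CG14275 was the one gene of this kind that was higher with EYA-E728Q. Its signals were 2045 and 2268 with EYA-D493N, against 3609 and 3763 with EYA-E728Q. They were 1888 and 1746 with EYA-Wildtype and 1952 and 1796 in control heads. The 2 EYA-E728Q arrays were above the 6 others, which lay close together. Between the mutants the log2 difference was -0.81 (95% interval -0.98 to -0.64, adjusted p = 0.00644), and EYA-E728Q exceeded EYA-Wildtype by 0.94 (adjusted p = 0.000911).

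CG5953 was the brightest called probe set, with 17069 and 18093 with EYA-D493N, against 11864 and 11381 with EYA-E728Q. EYA-Wildtype heads had 15313 and 13889 and control heads had 20116 and 20905. The EYA-E728Q arrays were the lowest, and the log2 difference was 0.52 (95% interval 0.36 to 0.68, adjusted p = 0.0288). This call was kept in 7 of 19 alternative settings of the processing, and a second probe set of CG5953 had a log2 difference of 0.31 that was not called (adjusted p = 0.393). On that probe set control was the lowest group, at 692 and 636. It had 1142 and 860 with EYA-D493N, 716 and 853 with EYA-E728Q, and 892 and 818 with EYA-Wildtype.

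In the genes where EYA-D493N stood apart, heix was called higher against each of the other groups. It encodes a prenyltransferase of the UbiA type. The signals were 1080.4 and 1129 with EYA-D493N, against 573 and 564 with EYA-E728Q. They were 540.3 and 511 with EYA-Wildtype and 479.9 and 477 in control heads. The 2 EYA-D493N arrays were well above the 6 others. The log2 difference was 0.90 (95% interval 0.71 to 1.10, adjusted p = 0.00663). EYA-D493N exceeded EYA-Wildtype by 0.97 (adjusted p = 0.00153), while EYA-E728Q differed from EYA-Wildtype by 0.07 (adjusted p = 0.855).

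CG33296 had 642 and 565 with EYA-D493N, against 221 and 192 with EYA-E728Q. EYA-Wildtype heads had 211 and 286, and control heads had 1446 and 1302. Every transgenic array was below both control arrays, and EYA-D493N was the nearest to them. The log2 difference between the mutants was 1.44 (95% interval 1.10 to 1.78, adjusted p = 0.00663), and EYA-D493N exceeded EYA-Wildtype by 1.17 (adjusted p = 0.00958).

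The 3 named genes for detoxification enzymes were all lower with EYA-D493N than with EYA-E728Q. Cyp28a5, a cytochrome P450 gene, had 1637 and 1256 with EYA-D493N, against 3196 and 3031 with EYA-E728Q. EYA-Wildtype heads had 3091 and 2745 and control heads had 5529 and 5078. The EYA-E728Q and EYA-Wildtype arrays lay together, with EYA-D493N below and control above. Cyp28a5 thus differed by -1.14 on the log2 scale (95% interval -1.40 to -0.88, adjusted p = 0.00663).

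Cyp6g1 is the P450 gene known for its part in resistance to DDT. It had 551 and 632 with EYA-D493N, against 1176 and 1139 with EYA-E728Q. EYA-Wildtype heads had 1584 and 1346 and control heads had 2844 and 2791. No 2 groups overlapped, and EYA-D493N was the lowest. For Cyp6g1 the log2 difference was -0.98 (95% interval -1.20 to -0.75, adjusted p = 0.00663), and EYA-D493N was below EYA-Wildtype by a log2 difference of -1.37 (adjusted p = 0.000507).

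Ugt35C1 encodes a UDP-glycosyltransferase, an enzyme that conjugates sugars to small molecules. It had 145 and 127 with EYA-D493N, against 283 and 305 with EYA-E728Q. EYA-Wildtype heads had 365 and 330.3 and control heads had 1803 and 1605. All transgenic arrays were far below control, and EYA-D493N was again the lowest. For Ugt35C1 the log2 difference was -1.03 (95% interval -1.28 to -0.77, adjusted p = 0.00898), beside differences from control of -3.51 for EYA-D493N and -2.48 for EYA-E728Q.

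The quick-to-court gene qtc, which encodes a coiled-coil protein and is named for male courtship, was lower with EYA-D493N. Its signals were 2111 and 2354 with EYA-D493N, against 3314 and 3119 with EYA-E728Q. They were 3310.1 and 3275 with EYA-Wildtype and 4036 and 3556 in control heads. The EYA-D493N arrays were below the 6 others. The log2 difference was -0.56 (95% interval -0.73 to -0.39, adjusted p = 0.0275), and the call was kept in 8 of 19 settings.

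For CG34134, Sod3 and SdhB neither mutant was called against EYA-Wildtype, whose mean lay between theirs on the probe set used. CG34134 had 2477 and 1675 with EYA-D493N, against 752 and 673 with EYA-E728Q, with 1171 and 1178 in EYA-Wildtype heads and 1794 and 1558 in control heads. EYA-D493N overlapped with control, and EYA-E728Q was the lowest group. Between the mutants CG34134 differed by 1.46 on the log2 scale (95% interval 1.09 to 1.84, adjusted p = 0.0103).

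Sod3 encodes an extracellular copper-zinc superoxide dismutase. It had 1148 and 1369.9 with EYA-D493N, against 1936 and 2064 with EYA-E728Q, with 1547 and 1580.5 in EYA-Wildtype heads and 2563 and 2345 in control heads. The groups did not overlap and EYA-D493N was the lowest. The log2 difference was -0.71 (95% interval -0.92 to -0.49, adjusted p = 0.0307), and the call was kept in 9 of 19 settings. A second probe set, 1622906_at, differed by -0.55 and was not called (adjusted p = 0.388). Its order of groups was another. It had 151 and 287 with EYA-D493N, against 330 and 299 with EYA-E728Q. EYA-Wildtype heads were the highest, at 664 and 696, and control heads the lowest, at 68.4 and 51.7.

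SdhB encodes the iron-sulfur subunit of succinate dehydrogenase, complex II of the respiratory chain. It had 4618 and 5316 with EYA-D493N, against 7672 and 6729.7 with EYA-E728Q, with 5885 and 5030.3 in EYA-Wildtype heads and 4622 and 4725 in control heads. The EYA-E728Q arrays were the highest, and EYA-D493N overlapped with EYA-Wildtype and spanned the control values. The log2 difference of -0.58 (95% interval -0.77 to -0.39) had an adjusted p of 0.0498, just inside the threshold, and was called in 3 of 19 settings.

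The other 5 called probe sets have no symbol or several symbols in the array annotation and are given by their identifiers. Probe set 1640955_s_at had 1346 and 1044 with EYA-D493N, against 37.3 and 7.20 with EYA-E728Q, with 61.3 and 23.5 in EYA-Wildtype heads and 38.4 and 9.92 in control heads. It was above the array median in EYA-D493N heads alone, passed the filter on low values through them, and had a log2 difference of 4.98 (95% interval 3.88 to 6.09, adjusted p = 0.00663). With EYA-E728Q near the pseudocount this size depended on it, from 3.36 to 6.03 over the settings, and the call was lost without the intensity trend (adjusted p = 0.0690) and without EYA-E728Q replicate 2 (0.0714). Probe set 1637828_a_at had 3798 and 4585 with EYA-D493N, against 1042 and 807 with EYA-E728Q, with 3722 and 3761 in EYA-Wildtype heads and 6081 and 5287 in control heads. Like Tektin-C it was low with EYA-E728Q, with a log2 difference of 2.16 (95% interval 1.88 to 2.43, adjusted p = 0.000378).

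Probe set 1633959_s_at had 699 and 761 with EYA-D493N, against 1912 and 2188 with EYA-E728Q, with 2137 and 1978 in EYA-Wildtype heads and 3100.2 and 2739.7 in control heads. The EYA-D493N arrays stood below all others, and the log2 difference was -1.49 (95% interval -1.71 to -1.28, adjusted p = 0.000508). Probe sets 1637828_a_at and 1633959_s_at were called in all 19 settings. Probe set 1639036_at differed by 0.92 (adjusted p = 0.00663), with EYA-E728Q near control. Probe set 1630299_at differed by -0.60 (adjusted p = 0.0155), with EYA-D493N the lowest group, and its call was kept in 8 of 19 settings.

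**Figure D2:**
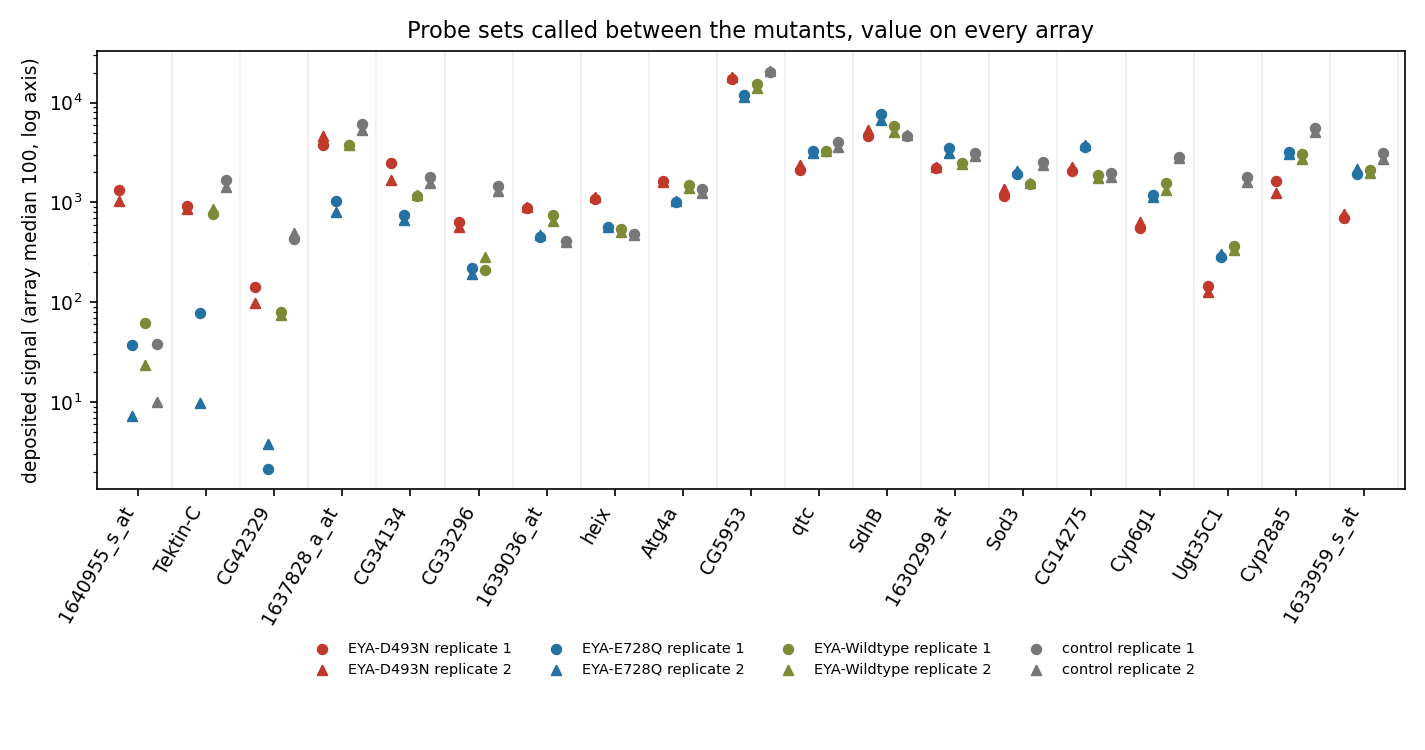
Deposited signal (log axis, array median 100) of the 19 called probe sets on each of the 8 arrays, ordered from the most positive to the most negative difference. Circles are replicate 1 and triangles replicate 2, and in each column the groups run EYA-D493N, EYA-E728Q, EYA-Wildtype and control. The EYA-E728Q points are low for Tektin-C, CG42329 and 1637828_a_at, and the EYA-D493N points are the only high ones for 1640955_s_at.

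None of 25 tested genes of eye specification was called between the mutants, and their median log2 difference was 0.03, beside 0.00 over 8660 genes tested. With 0.169% called over all probe sets, a count of 0 in 25 is near the background. Without EYA-D493N replicate 1 the median was 0.06, and without replicate 2 it was -0.11. The probe set for eya had 1240.4 and 1554 with EYA-D493N, against 1386 and 1140.3 with EYA-E728Q. The groups overlapped, with a log2 difference of 0.10 (95% interval -0.18 to 0.38, adjusted p = 0.767). EYA-Wildtype heads had 916 and 915 and control heads had 991 and 918. Against control, eya differed by 0.46 with EYA-D493N (adjusted p = 0.0234) and 0.35 with EYA-E728Q (adjusted p = 0.0707). With EYA-Wildtype it differed from control by -0.04 (adjusted p = 0.855). No source used here says whether this probe set reads the transgene.

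The gene so, which encodes the DNA-binding partner of EYA, had 389.7 and 463 with EYA-D493N, against 488 and 379 with EYA-E728Q. Its log2 difference was -0.04 (95% interval -0.36 to 0.27, adjusted p = 0.921). The values of dac, which encodes the network's nuclear cofactor Dachshund, were 553 and 767 with EYA-D493N, against 615 and 555 with EYA-E728Q. The difference of 0.13 had an interval of -0.25 to 0.51 (adjusted p = 0.779). For eya, so and dac the whole interval, from a variance pooled over all 4 groups, lay within a 2-fold difference in either direction.

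The Pax6 gene ey had 607 and 679 with EYA-D493N, against 759 and 762 with EYA-E728Q. Its arrays did not overlap, but the log2 difference of -0.26 (95% interval -0.48 to -0.05) was not called (adjusted p = 0.301). The gene dpp, which encodes a secreted ligand of the BMP family, had 734 and 694 with EYA-D493N, against 656 and 664 with EYA-E728Q. It differed between the mutants by 0.07 (95% interval -0.13 to 0.27, adjusted p = 0.768), while against control it was higher by 0.80 with EYA-D493N, 0.73 with EYA-E728Q and 0.56 with EYA-Wildtype. The extremes of the list, chosen after their values were seen, were Pph13, a homeodomain gene of photoreceptors, at -0.40 (adjusted p = 0.0992) and the zinc finger gene salm at 0.43 (adjusted p = 0.155).

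Of 19 phototransduction genes 0 were called, with a median of -0.05. Without EYA-D493N replicate 1 the median was -0.01, and without replicate 2 it was -0.12. Also chosen after its values were seen, rdgA, which encodes the diacylglycerol kinase of photoreceptors, had 1018 and 1706 with EYA-D493N, against 2193 and 2054 with EYA-E728Q, a log2 difference of -0.73 (adjusted p = 0.180). It was -0.37 without EYA-D493N replicate 1 (adjusted p = 0.145) and -1.09 without replicate 2 (adjusted p = 0.000269).

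Of 14 clock genes 0 were called, beside 0.169% of all probe sets, with a median of 0.04. The largest values among them, chosen after they were seen, were those of Pdp1, an activator of Clk transcription, at 0.67 (adjusted p = 0.124) and of the light-sensitive repressor gene tim at 0.64 (adjusted p = 0.0592). The signals of tim were 6865 and 9340.3 with EYA-D493N, against 5158 and 4799.6 with EYA-E728Q, which do not overlap. The log2 difference of tim was 0.80 without EYA-D493N replicate 1 and 0.48 without replicate 2. Either fit drops the spread between the EYA-D493N arrays, so it cannot show whether the difference exceeds that spread. The median of the clock list was -0.0018 without replicate 1 and 0.0094 without replicate 2.

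Among detoxification genes, 2 of 62 tested P450 genes (Cyp28a5 and Cyp6g1) and 1 of 17 UDP-glycosyltransferases (Ugt35C1) were called lower with EYA-D493N, and 0 of 32 glutathione transferases were called. Members of these families did not move one way, since 37 of the 62 P450 genes had a log2 difference above 0 and the median was 0.08. The UDP-glycosyltransferases had a median of 0.02 and the glutathione transferases one of 0.06. Over all probe sets tested, 0.0799% were called lower. Without EYA-D493N replicate 1 the P450 genes, UDP-glycosyltransferases and glutathione transferases had medians of -0.02, 0.07 and -0.03. Without replicate 2 the medians were 0.10, -0.03 and 0.12.

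The subunits of the proteasome, which degrades ubiquitin-tagged proteins, had 0 called of 28 and a median log2 difference of -0.11. For 13 members the deposited signals did not overlap between the mutants and the normalized log2 difference was below 0, beside 16% of all probe sets. The most negative proteasome member, chosen after its value was seen, was Rpn11, the deubiquitinase of the lid, at -0.27 (adjusted p = 0.244). Of 10 heat-shock chaperone genes 0 were called. All 10 had a log2 difference above 0, with a median of 0.16. For 9 of them the deposited signals also did not overlap between the mutants, beside 23.6% of all probe sets with both traits. The largest value was that of DnaJ-1, a co-chaperone of Hsp70 chosen after its values were seen, with 14286 and 7804 with EYA-D493N, against 6649 and 6954 with EYA-E728Q. Its log2 difference of 0.62 was not called (adjusted p = 0.373), and the high array was EYA-D493N replicate 1.

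Of 57 genes of the respiratory chain and ATP synthase SdhB alone was called, where 0.169% of all probe sets were, and that call was kept in 3 of 19 settings. A log2 difference above 0 was found for 3 of the 57, beside 5548 of 11261 probe sets, and the median was -0.14. The nearest of the others, chosen after its value was seen, was RFeSP, the Rieske iron-sulfur protein of complex III, at -0.41 (adjusted p = 0.0607). Among 71 mitochondrial ribosomal proteins 0 were called, with a median of -0.08, and among 29 cytosolic ones 0, with a median of 0.04. Deposited signals did not overlap between the mutants, with a log2 difference above 0, for 22 cytosolic and 5 mitochondrial ones, beside 23.6% of all probe sets. With a difference below 0 they did not overlap for 5 cytosolic and 21 mitochondrial ones, beside 16%. The list of axoneme and sperm tail genes held both Tektin-C and CG42329, which had been put on it with their earlier values known. Without them 0 of its 10 tested genes were called, and the median was -0.09.

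The list medians depended on the EYA-D493N array used. With EYA-D493N replicate 1 left out, 63 probe sets were called (0.559%, with 0.275% higher and 0.284% lower), and with EYA-D493N replicate 2 left out 1096 were called (9.73%, with 4.83% higher and 4.9% lower). These fits take the spread of the lone array from the other groups and share all arrays except those of EYA-D493N. Overlap between their calls, or with the 19 calls, is therefore not independent evidence. Both sets held all 19 probe sets called with every array, and 41 were called in both, 65.1% of the first and 3.74% of the second. For 38 of the 41 the direction was the same in both.

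Muscle genes showed the gap between the 2 arrays. The summed signal of 23 muscle contractile genes was 116408 on EYA-D493N replicate 1 and 210570 on replicate 2, against 196798 and 163287 on the EYA-E728Q arrays. The lowest array in the series was thus EYA-D493N replicate 1 and the highest was replicate 2 of the same group. With both arrays 0 of 22 tested muscle genes were called and the median log2 difference was -0.19. With EYA-D493N replicate 1 alone the median was -0.56 and 13 were called lower. With replicate 2 alone it was 0.04 and 0 were called.

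The gap was also present in the respiratory chain and the cuticle. For the respiratory chain the median was -0.23 with 30 genes called lower from replicate 1 alone, and -0.04 with 2 called lower from replicate 2 alone. For 31 cuticle protein genes it was -0.30 with 14 called lower and 1 higher from replicate 1 alone, and 0.17 with 2 called higher from replicate 2 alone. The heat-shock chaperones had a median of 0.27 with 5 called higher from replicate 1 alone, and 0.10 with 0 called from replicate 2 alone. The proteasome list stayed close to its value, at -0.09 and -0.11. In bulk head RNA, fewer cells of a type and less RNA per cell cannot be told apart.

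**Figure D3:**
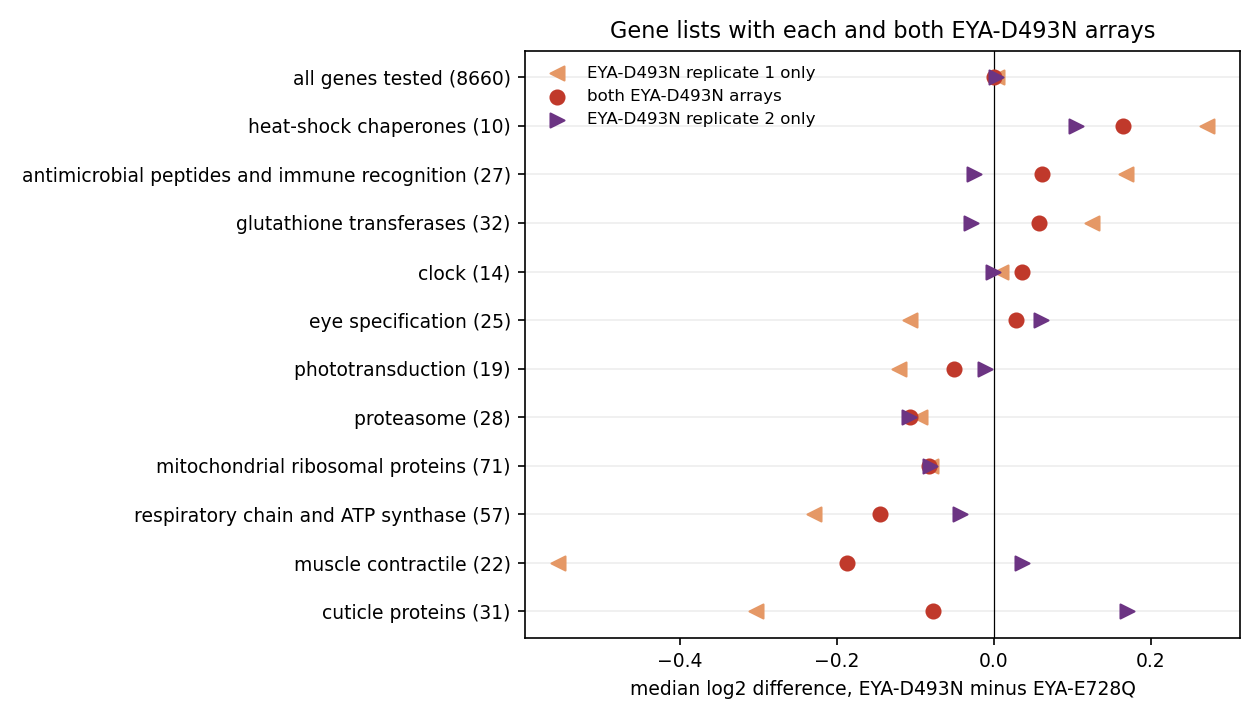
Median log2 difference between EYA-D493N and EYA-E728Q (x axis) for all genes and 11 gene lists (y axis, with the number of genes tested), from both EYA-D493N arrays (circles), replicate 1 only (left-pointing triangles) or replicate 2 only (right-pointing triangles). The muscle median is -0.56 with replicate 1 and 0.04 with replicate 2, while the proteasome points coincide.

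Several of the largest uncalled differences rested on 1 array, and these genes were chosen after their values were seen. CG5172 had 80.4 and 4061 with EYA-D493N, against 3476 and 3689 with EYA-E728Q, and its log2 difference of -2.53 was not called (adjusted p = 0.448). The cuticle protein gene Cpr62Bc had 209 and 3167 with EYA-D493N, against 3148 and 2237 with EYA-E728Q. In both genes EYA-D493N replicate 1 alone was low. CG5172 differed by 0.13 without that array (adjusted p = 0.608) and by -5.18 without replicate 2 (adjusted p = 1.16e-08). For Cpr62Bc the log2 difference was -1.68 with both arrays (adjusted p = 0.474), 0.21 without replicate 1 (adjusted p = 0.628) and -3.56 without replicate 2 (adjusted p = 7.55e-06). CG34324 had 8.60 and 20.4 with EYA-D493N, against 31.3 and 1275 with EYA-E728Q, where the high value stood on EYA-E728Q replicate 2 alone. That array was also the highest of the mutant arrays for some midgut markers. The midgut protease gene Jon65Aiii had 39.1 and 4.42 with EYA-D493N, against 2.58 and 478 with EYA-E728Q. For alphaTry the signals were 39.1 and 27.9 with EYA-D493N, against 9.44 and 356 with EYA-E728Q. The same array was the highest for betaTry, Mal-A1, yip7 and thetaTry. It was not the highest for epsilonTry, LManI, LManII, Npc2d and Lip3, and it was the lowest for Jon25Bi and Npc2e. Of 8 tested midgut markers 0 were called, and the summed signal of the 13 on the array was 3127 and 2969 with EYA-D493N, against 2442 and 4069 with EYA-E728Q.

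**Figure D4:**
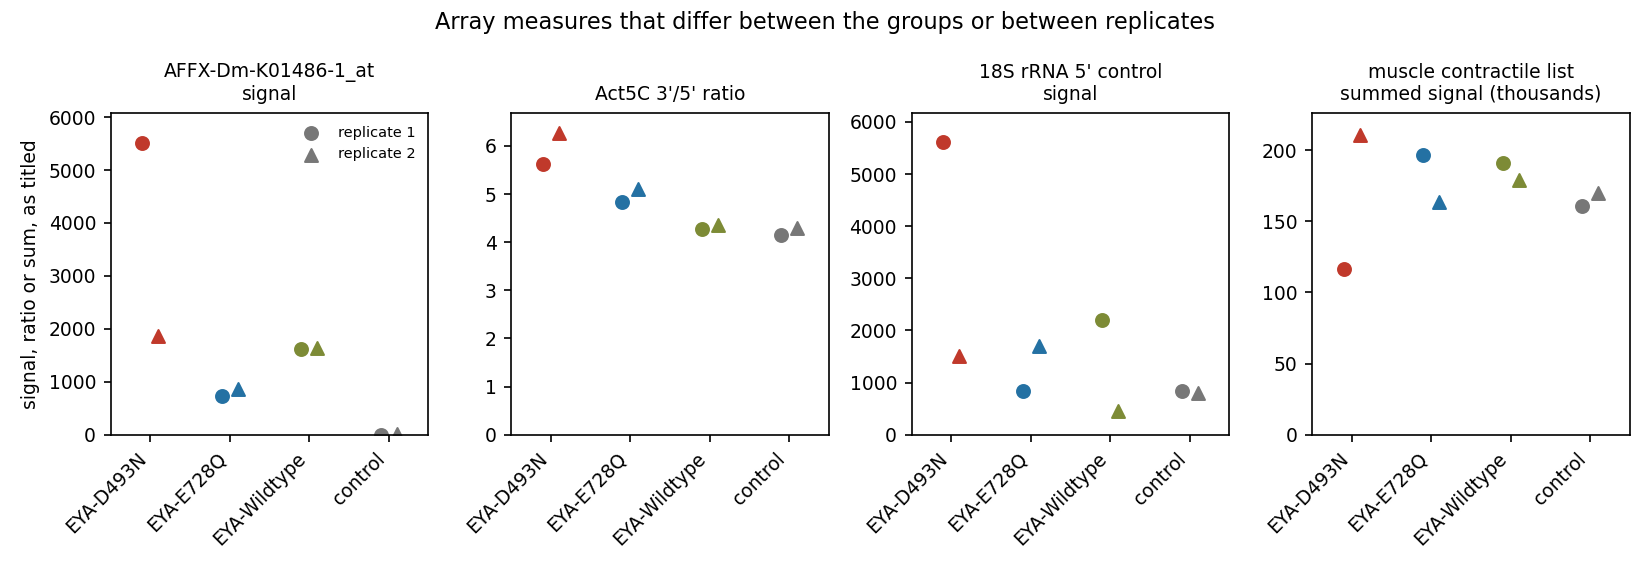
Measures on each array, with EYA-D493N, EYA-E728Q, EYA-Wildtype and control from left to right, circles for replicate 1 and triangles for replicate 2. From left to right the panels give the signal of an Affymetrix control probe set, the Act5C ratio of 3' to 5' signal, the 18S rRNA 5' signal and the summed muscle signal. EYA-D493N replicate 1 has the highest control probe set and 18S signals and the lowest muscle sum.

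Just outside the threshold, 47 probe sets had an adjusted p between 0.05 and 0.10, the lowest being 0.0538 for Tig, which encodes the extracellular matrix protein Tiggrin. Tig and Trissin were chosen after their values were seen. Tig had 2649 and 2380.1 with EYA-D493N, against 1472 and 1641 with EYA-E728Q, a log2 difference of 0.66. Its arrays did not overlap. The neuropeptide gene Trissin had 619 and 699 with EYA-D493N, against 361 and 322 with EYA-E728Q, a log2 difference of 0.88 (adjusted p = 0.0592).

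Of the 14 called genes, 9 lie on chromosome arm 2L (64.3%), an arm that held 17.9% of 8626 genes tested with a known arm. They were Atg4a, CG42329, qtc, CG33296, CG34134, CG14275, Cyp28a5, heix and CG5953. Of the others, SdhB, Sod3 and Cyp6g1 lie on 2R, Tektin-C on 3L and Ugt35C1 on 3R. The X held 0 of the 14, beside 16.4% of the genes tested. In the comparison without EYA-D493N replicate 1, 22 of 48 called genes (45.8%) lay on 2L, and these include the same 9. The share was 24.3% of 103 genes called between EYA-D493N and EYA-Wildtype, 20.6% of 63 called between EYA-E728Q and EYA-Wildtype, and 20.9% of 1147 with an unadjusted p under 0.05 between the mutants. Arms are those of the annotation of assembly Release 6 plus ISO1 MT. The share was noticed in these data, has no test, and its relation to the insertion sites was not tested.

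The 2L genes were not a single block. The closest pairs were heix and CG5953 with 27 genes between them, Atg4a and CG42329 with 34, CG34134 and CG14275 with 37, and CG33296 and CG34134 with 79. The members of the pair CG34134 and CG14275 differed in opposite directions. Of the 10 tested genes flanking each called gene, as many on one side as on the other, 0 were called. With 0.169% called over all probe sets, this count is near the background. The median log2 difference of these neighbours lay between -0.28 for CG33296 and 0.16 for Cyp28a5. Single neighbours were as low as -1.23 beside Cyp28a5 and -1.02 beside CG33296, and as high as 1.0 beside heix.

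**Figure D5:**
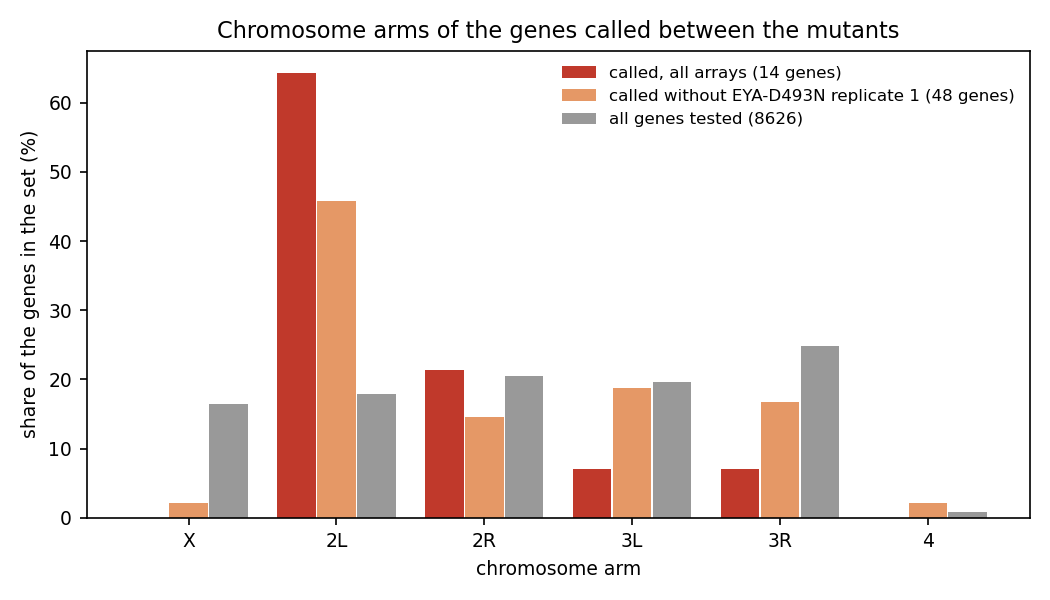
Share of genes on each chromosome arm (y axis, percent of the set) among the 14 genes called between the mutants, the 48 called without EYA-D493N replicate 1 and the 8626 tested. Arm 2L holds 64.3% of the called genes, 45.8% of those called without that array and 17.9% of those tested.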

How the data were processed

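Head RNA of 4 groups of 2 samples was hybridised to 1-colour Affymetrix arrays. The authors deposited intensity values on a linear scale with an array median of 100. GCOS is named in the submitters' processing notes, without a version. The sources used here give neither the background correction nor the summary method. The values were quantile normalized over 18769 probe sets without the Affymetrix controls, because trimmed means (percentiles 2 to 98) differed by 11.5%, above a tolerance of 5%. Before log2, 17.5 was added as pseudocount, which is percentile 25 of the deposited values. The top 60% by mean were tested. All 8 arrays entered a limma 3.58.1 model (R 4.3.3) with 1 coefficient per group, eBayes with an intensity trend, 4 residual and 4.75 prior degrees of freedom, two-sided tests and Benjamini-Hochberg adjustment. The scripts were tested on simulated data. Precision is limited by having 2 arrays in each group.

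In the array annotation 13647 probe sets had 1 symbol, 402 had several and 4903 had none. For 13544 probe sets with 1 symbol the current symbol was taken by gene identifier, whether or not it had changed. The probe set of highest mean stood for a gene. Named genes are, in each direction, the 12 called genes of largest difference and the 5 of smallest adjusted p (1 symbol, arrays not overlapping, a group mean of at least 100), called list members, genes called in opposite directions against control, and eya, so, dac, ey and dpp. Others are said to be chosen after their values were seen. The members and lists were chosen with earlier results of these data known. Alternatives changed the normalization, pseudocount, filter, arrays, variance prior, replicate block and each array left out. No label says that replicate numbers mark a shared day.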

Additional observations from a re-analysis of the deposited data

Results flagged for a closer look

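The Affymetrix control probe set AFFX-Dm-K01486-1_at, outside the tests, was the 1 of 100 such probe sets searched that was near 0 in control heads and high in each transgenic group. Its signals were 5514 and 1857 with EYA-D493N, against 734 and 857 with EYA-E728Q. They were 1624 and 1645 with EYA-Wildtype and 2.21 and 14.05 in control heads. The mean was 3685 ± 2586 with EYA-D493N and 796 ± 86.6 with EYA-E728Q (SD, n = 2 each), a ratio of 4.63 that became 2.33 with EYA-D493N replicate 2 alone. No source used here names the sequence it reads, and its relation to the called genes was not tested.

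Atg4a stood out because the mutants were called in opposite directions against control, while the difference between them, 0.62 on the log2 scale (adjusted p = 0.0135 by limma), was itself called. That call was kept in 10 of 19 settings.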

How the results depend on the processing

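The 19 calls (10 higher, 9 lower, 9 at least 2-fold) changed with the arrays and the variance prior used. With only the 4 mutant arrays 3 were called (2 higher, 1 lower, 3 at least 2-fold), with the 6 transgenic arrays 12 (8 higher, 4 lower), and without the intensity trend 7 (5 higher, 2 lower, 4 at least 2-fold). The 3 called with the 4 mutant arrays were 1637828_a_at, 1633959_s_at and 1640955_s_at, so none of the 14 genes with a single symbol was called there. Calls of heix, CG33296 and CG14275 were kept in 16 of 19 settings. Those of CG34134, Cyp28a5 and Cyp6g1 were kept in 15, and that of Ugt35C1 in 14. Deposited values gave 16 calls with 5 lower. Leaving out each array gave 4 to 1096 calls (3 to 544 higher, 1 to 552 lower, 4 to 170 at least 2-fold). The lowest counts came without EYA-E728Q replicate 2 (4) and replicate 1 (10), and the highest without EYA-D493N replicate 2 (1096) and replicate 1 (63). Each control or EYA-Wildtype array left out gave 13 (5 lower). The cause was not tested.

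The replicate block gave 15 calls. Same-numbered EYA-D493N and EYA-E728Q arrays deviated with a correlation of -0.14, and the crossed block, added after seeing the data, gave 44 (24 higher, 20 lower). The numbers are not stated to pair samples. The other normalization, pseudocounts, filters and array weights gave 17 to 21.

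Of 24 probe sets followed through the settings (the 19 called, eya, so, dac, ey and dpp), eya and so changed sign in 2 settings each and dac in 1, all uncalled, and the others kept theirs.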
